A study of Mus musculus with 6 samples.

Results

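Hox genes encode homeodomain transcription factors that give cells their position along the head to tail axis. This account covers the 39 protein-coding genes of the 4 Hox clusters, taken as every symbol in the count tables made of Hox, a cluster letter a to d and a paralogue number, out of 24062 genes in the tables. RNA was sequenced from cells of the dorsal pancreatic bud of mouse embryos, dissociated and sorted by Tomato and GFP fluorescence into epithelial and mesenchymal fractions, which were frozen and pooled before RNA was purified. There were 6 libraries, 1 per group: epithelium at E12.5 and at E14.5 and mesenchyme at E12.5 (E, days of embryonic development), each from control and mutant embryos. Controls are given as mTmG, a reporter allele whose cells change from Tomato to GFP where Cre has acted, and the mutant genotype includes mTmG+/-, Nkx2.5-Cre+/- and Pbx2+/-. The Cre is driven from the locus of Nkx2-5, a gene of the splanchnic (gut-associated) mesenchyme that surrounds the bud, so the genetic change is aimed at that tissue. How green cells arose in control embryos, which carry no Cre by their label, is not given in the sources used here.

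The genes of a Hox cluster lie in a row in the order of their paralogue numbers, and as a rule low-numbered genes are expressed from the hindbrain backwards and high-numbered genes only in the rear trunk, tail, genital tubercle and limbs. Hox proteins bind DNA together with homeodomain partners of the Pbx and Meis families, and several Hox promoters and enhancers are themselves known targets of such complexes. Polycomb proteins hold the clusters silent where they are not in use, and retinoic acid and Cdx factors help to open them in order. In the gut and its outgrowths, Hox genes are known mainly as genes of the mesenchyme.

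Each level below is in CPM, read counts scaled to one fixed library total, after TMM scaling, which adjusts the totals for differences in composition. With 1 pooled library per group no difference within a pair has a replicate check or a p-value; 1 test of genotype across the 3 pairs is given at the end. Each fold compares 2 libraries and carries an exact 95% interval that covers counting error only. A gene counted as measured in a comparison when either library held it at 5 CPM or more, and was called higher or lower if it then differed by at least 2-fold with an interval leaving out 1. Libraries held 14032569 to 20276045 counts on genes, and 3 counts, the limit a count of 0 allows, were worth 0.141 to 0.215 CPM. Pbx2 checked the genotype labels in part: it stood at 89.9 CPM in control mesenchyme and 56.0 CPM in mutant mesenchyme, but at 54.5 and 49.7 CPM in the E12.5 epithelial pair and 34.0 and 47.3 CPM in the E14.5 pair, control first. Because the epithelial pairs did not show the lower level seen in mesenchyme, their mutant members are called the libraries labelled mutant. Pdx1, a defining gene of pancreatic epithelium, lay between 57.2 and 126 CPM in the 4 epithelial libraries and at 0 and 0.0643 CPM in mesenchyme. Nkx2-5 stood at 41.2 and 66.8 CPM in control and mutant mesenchyme and at most at 3.68 CPM in the epithelial libraries. General mesenchymal genes (29 collagens and other markers) were not absent from the epithelial libraries: they summed to 7004, 8200, 7148 and 14790 CPM there (E12.5 control, E12.5 labelled mutant, E14.5 control, E14.5 labelled mutant) against 14566 and 13270 CPM in control and mutant mesenchyme.

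Among Hox genes, 3 windows of promoter sequence are shown because they hold the letters of a site for a Pbx and Hox pair and belong to genes described below. They come from RefSeq on GRCm38.p6, the same assembly as mm10, and run from 250 bases before to 50 bases after the annotated start, 5′ to 3′ on the gene's own strand. Capitals mark TGATNNAT, a Pbx-Hox motif, read on either strand, and in Hoxa2 also TGACAG, a Meis motif. Hoxa2 lies on the minus strand (chr6:52164782-52165081) and Hoxb1 (chr11:96365508-96365807) and Hoxb8 (chr11:96281655-96281954) on the plus strand.
Hoxa2: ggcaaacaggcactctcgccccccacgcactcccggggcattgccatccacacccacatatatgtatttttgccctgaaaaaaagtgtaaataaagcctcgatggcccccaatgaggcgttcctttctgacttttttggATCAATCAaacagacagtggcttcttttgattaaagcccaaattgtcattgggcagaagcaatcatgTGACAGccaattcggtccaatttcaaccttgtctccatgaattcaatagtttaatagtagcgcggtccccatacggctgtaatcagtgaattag
Hoxb1: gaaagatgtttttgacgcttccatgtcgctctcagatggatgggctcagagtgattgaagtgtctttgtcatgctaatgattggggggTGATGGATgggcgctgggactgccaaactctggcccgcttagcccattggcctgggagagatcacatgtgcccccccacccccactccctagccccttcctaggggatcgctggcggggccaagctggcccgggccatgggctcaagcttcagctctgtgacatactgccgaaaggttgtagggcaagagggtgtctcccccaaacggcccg
Hoxb8: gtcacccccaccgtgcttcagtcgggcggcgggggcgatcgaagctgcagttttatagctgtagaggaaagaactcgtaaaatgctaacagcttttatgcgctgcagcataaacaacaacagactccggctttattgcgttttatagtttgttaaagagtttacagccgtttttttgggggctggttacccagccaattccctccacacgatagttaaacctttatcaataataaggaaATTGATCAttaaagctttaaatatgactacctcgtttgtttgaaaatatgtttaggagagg
Of the 39 genes, 22 had a window in the table (24 windows in all, since some genes have several starts). TGATNNAT was found in 4 of the 24 windows (16.667%), those of Hoxa2, Hoxb1, Hoxb8 and Hoxd11, against 8.846% of all 32851 windows of that length. TGACAG was found in 2 of the 24 (8.333%), those of Hoxa2 and Hoxa3, against 19.177% of all windows. The Pbx-Hox letters began at -111 from the start in Hoxa2, at -162 in Hoxb1, at -11 in Hoxb8 and at -73 in Hoxd11. Such matches describe letters and do not show that a protein binds there.

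The pancreatic bud libraries held a Hox pattern of low and middle paralogue numbers. All libraries together gave 2 genes with no read (Hoxa13 and Hoxc9), 16 genes with reads but under 5 CPM in each of the 6 libraries, and 21 genes at 5 CPM or more in at least 1. The Hox genes summed to 204 CPM in E12.5 control epithelium, 380 CPM in its labelled mutant counterpart, 633 CPM in control mesenchyme, 972 CPM in mutant mesenchyme, 94.6 CPM in E14.5 control epithelium and 376 CPM in the E14.5 library labelled mutant. Mutant mesenchyme was thus the highest and E14.5 control epithelium the lowest. In a bulk pool, fewer cells of a type and less RNA per cell cannot be told apart.

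Clusters A and B carried most of this signal. Cluster B on chromosome 11 took 43.0% to 55.7% of the Hox reads of a library and cluster A on chromosome 6 took 30.2% to 39.4%. Cluster C on chromosome 15 took 4.04% of them in mutant mesenchyme and 20.1% in E14.5 control epithelium, the lowest and highest shares of that cluster. Cluster D on chromosome 2 took 0.731% in control mesenchyme and 7.09% in the E14.5 library labelled mutant, again the extremes. Summed levels of cluster C were 29.3 and 65.2 CPM in E12.5 control and labelled mutant epithelium, 44.2 and 39.3 CPM in control and mutant mesenchyme, and 19.0 and 54.6 CPM in E14.5 control and labelled mutant epithelium. Cluster C was the 1 cluster with a higher sum in E12.5 epithelium labelled mutant than in mutant mesenchyme; cluster D, the next nearest, stood at 7.82 and 8.87 CPM.

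Hoxa5, known for its part in lung, gut and neck skeleton development, was the most abundant Hox gene per kilobase of exon in each of the 6 libraries. Its level per length was 16.6, 28.9, 65.6, 114, 8.98 and 36.2 CPM per kb in E12.5 control epithelium, E12.5 labelled mutant epithelium, control mesenchyme, mutant mesenchyme, E14.5 control epithelium and E14.5 labelled mutant epithelium; further lists of 6 values keep this order. The runner-up per length differed: Hoxb7 in E12.5 control epithelium, Hoxb2 in E12.5 labelled mutant epithelium and control mesenchyme, Hoxb6 in mutant mesenchyme and E14.5 labelled mutant epithelium, and Hoxc4 in E14.5 control epithelium. Lengths are unions of exons, and Hoxb2 shares 27.3% of its exon bases with the antisense gene Hoxb3os, so reads of the 2 cannot be told apart unless counting used strand, which the sources used here do not give. The same holds for Hoxb3 (52.9% of exon bases shared), Hoxa11 (34.98%), Hoxa7 (20.4%) and most of the shared bases of Hoxa3 (27.1%, of which 8.01% on its own strand). Hoxd3 (62.8%, of which 62.3% on its own strand) and Hoxd4 (52.3%, on its own strand) share exons with each other or with other genes in a way that strand would not separate.

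**Figure D1:**
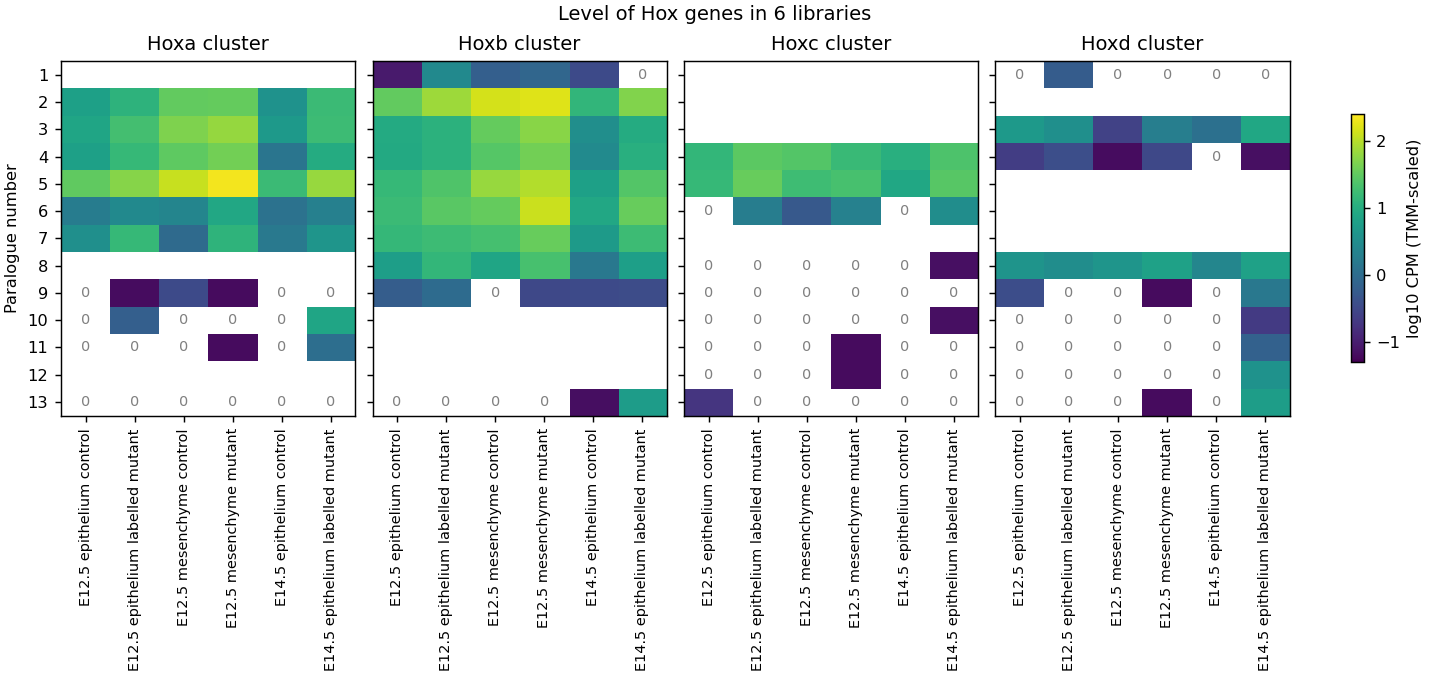
Level of Hox genes (rows, paralogue number; panels, cluster) in the 6 libraries (columns), as log10 of TMM-scaled CPM; 0 marks a gene with no read and blank cells are paralogues that the cluster lacks or that are not drawn. Paralogues 1 to 8 carry the signal, and paralogues 10 to 13 show colour mainly in the E14.5 library labelled mutant.

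Between the fractions of E12.5 control buds, the measured Hox genes of paralogues 1 to 5 in clusters A and B were higher in mesenchyme relative to all genes, though not relative to splanchnic factors. Those from paralogue 6 on were not called, and neither were Hoxc4 and Hoxc5. Of 14 measured genes, 9 were called higher in mesenchyme and none lower, where 7% of all measured genes were called higher and 13.6% lower. The median log2 ratio was 1.72 for Hox genes and 0.03 for all measured genes. Hoxa3, needed for thymus and parathyroid formation, stood at 7.44 CPM in control epithelium and 47.8 CPM in control mesenchyme (6.42-fold, interval 5.39 to 7.67). Hoxa2, a gene of the hindbrain and second pharyngeal arch, stood at 6.36 and 32.6 CPM (5.13-fold, 4.23 to 6.25), and its hindbrain partner Hoxb2 at 32.4 and 146 CPM (4.53-fold, 4.15 to 4.94). By contrast Hoxb6, Hoxb7 and Hoxb8, genes of the trunk, stood at 16.8 and 33.1 CPM (1.97-fold, 1.72 to 2.27), 14.8 and 20.5 CPM (1.39-fold, 1.18 to 1.63) and 6.03 and 7.51 CPM (1.25-fold, 0.958 to 1.62). In cluster C, Hoxc4 stood at 13.9 and 25.6 CPM (log2 ratio 0.87) and Hoxc5 at 15.2 and 18.1 CPM (0.25). Hoxc5 had the lowest ratio of the 14 measured genes, so the uncalled genes were not only those of high number. Medians were 2.18 for the 3 measured genes of paralogues 1 and 2, 1.93 for the 8 of paralogues 3 to 5 and 0.47 for the 3 of paralogues 6 to 8. Hoxa7 went the other way at low depth, with 3.53 CPM in epithelium (75 reads) and 0.939 CPM in mesenchyme (14 reads), 3.76-fold lower (2.11 to 7.21), but did not reach 5 CPM. Hoxd3 did so too, with 4.95 CPM (105 reads) and 0.268 CPM (4 reads), 18.4-fold lower in mesenchyme (6.99 to 68.9) and likewise under 5 CPM. Relative to the median of the splanchnic mesenchyme factors, 13 transcription factors of this tissue such as Foxf1 and Barx1, the Hox median in this comparison was -0.13, with 0 genes called higher and 3 lower.

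Mesenchyme of mutant buds showed the same side for most genes. Of 17 measured genes, 12 were called higher in mesenchyme than in epithelium labelled mutant and none lower, against 5.42% and 12.9% of all measured genes, with medians of 1.43 for Hox genes and 0.03 for all genes. Relative to the splanchnic median the Hox median was 0.20, with 0 called higher and 3 lower. Hoxb6 was now called, at 28.5 CPM in labelled mutant epithelium and 126 CPM in mutant mesenchyme (4.42-fold, 3.99 to 4.92). Hoxc4 and Hoxc5, which belong to the neck and upper trunk group, were lower in mesenchyme but short of 2-fold: 29.2 and 16.1 CPM for Hoxc4 (1.81-fold, 1.54 to 2.12) and 34.2 and 20.9 CPM for Hoxc5 (1.64-fold, 1.42 to 1.89).

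In E12.5 mesenchyme, the tissue at which the Cre is aimed, 4 of the 6 measured genes of paralogues 6 to 8 were called higher in the mutant library and none of the 3 measured genes of paralogues 1 and 2. Of 17 measured genes, 4 were called higher (Hoxa6, Hoxa7, Hoxb6 and Hoxb8) and none lower, where 1.96% of all measured genes were called higher and 3.5% lower. The median log2 ratio was 0.60 for Hox genes and -0.01 for all measured genes, and 15 of the 17 had a ratio above 0 against 49.1% of all genes. Of the 17, 14 reached 5 CPM in the control, and Hoxa6, Hoxa7 and Hoxd8 were measured through the mutant library alone, which favours a higher call. This comparison shares the control mesenchyme library with the control fraction comparison above, so the 2 are not independent.

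Hoxa7, a trunk gene, had the largest genotype ratio of the measured Hox genes here. It stood at 3.53 and 14.9 CPM in E12.5 control and labelled mutant epithelium, 0.939 and 12.7 CPM in control and mutant mesenchyme, and 1.58 and 4.24 CPM in E14.5 control and labelled mutant epithelium. The mesenchymal pair rested on 14 and 198 reads and differed 13.6-fold (7.89 to 25.3), and control mesenchyme was the lowest of all 6 libraries. Its neighbour Hoxa6 stood at 1.79, 2.89, 2.41, 8.36, 1.23 and 2.08 CPM in the order given above, with mutant mesenchyme apart from the others at 3.46-fold over control (2.38 to 5.16). Between these genes lies Mira, a long noncoding RNA at chromosome 6, 52214491 to 52215288 in RefSeq, inside the span of the GENCODE model of Hoxa7 (52214491 to 52221854). Mira had 13, 80, 3, 58, 11 and 9 reads in the 6 libraries. In mesenchyme its ratio was 18.5-fold (6.04 to 92.5) at under 5 CPM, so 3 adjoining features of cluster A were higher in the mutant library, though reads of Mira and Hoxa7 may not be separable.

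Hoxb6 and Hoxb8 on chromosome 11 were also higher in mutant than control mesenchyme, though control mesenchyme was not their lowest library. Hoxb6 stood at 16.8, 28.5, 33.1, 126, 8.22 and 35.1 CPM, 3.82-fold higher in mutant than control mesenchyme (3.46 to 4.22), and mutant mesenchyme held the most. Hoxb8, whose promoter is printed above and whose best known roles are in the trunk nervous system and blood, stood at 6.03, 14.1, 7.51, 21.3, 1.51 and 6.10 CPM, 2.83-fold higher (2.28 to 3.54). Hoxb7, which lies between them, stood at 14.8, 17.3, 20.5, 34.7, 5.14 and 17.3 CPM and was 1.69-fold higher (1.47 to 1.95), short of the threshold. Hoxd8, on chromosome 2, stood at 4.29 and 6.50 CPM in control and mutant mesenchyme and was not called either (1.51-fold, 1.10 to 2.10). Hoxa6, Hoxb6, Hoxb7 and Hoxb8 share no exon bases with another annotated gene.

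Toward the low-numbered end the genotype ratios in mesenchyme were small. Hoxa5 stood at 31.2, 54.3, 123, 214, 16.9 and 67.9 CPM and was 1.73-fold higher in mutant mesenchyme (1.64 to 1.84). Hoxb2 stood at 32.4, 71.0, 146, 168, 13.6 and 50.7 CPM (1.15-fold, 1.08 to 1.21), and Hoxa2 at 6.36, 12.4, 32.6, 34.1, 3.90 and 16.8 CPM (1.05-fold, 0.923 to 1.19). Hoxc4 went the other way, at 25.6 and 16.1 CPM, 1.58-fold lower (1.35 to 1.86). Medians on the log2 scale were 0.06 over the 3 measured genes of paralogues 1 and 2, 0.46 over the 8 of paralogues 3 to 5 and 1.65 over the 6 of paralogues 6 to 8. Spearman's rho between paralogue number and log2 ratio was 0.72 across the 17 genes, 0.87 across the 14 of clusters A and B and 0.70 without Hoxa7. Among paralogues 6 to 8, Hoxa6, Hoxa7 and Hoxd8 were measured through the mutant library alone, which favours higher ratios in that group. It therefore also favours a higher median there and a higher rho, and rho without these genes together was not computed. These correlations are across genes that share both libraries, are not independent replicates and were looked at after the values were seen. The same rho was 0.00 over 14 genes in E12.5 epithelium and 0.14 over 19 genes in E14.5 epithelium, or -0.34 over the 16 of paralogues 1 to 8.

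**Figure D2:**
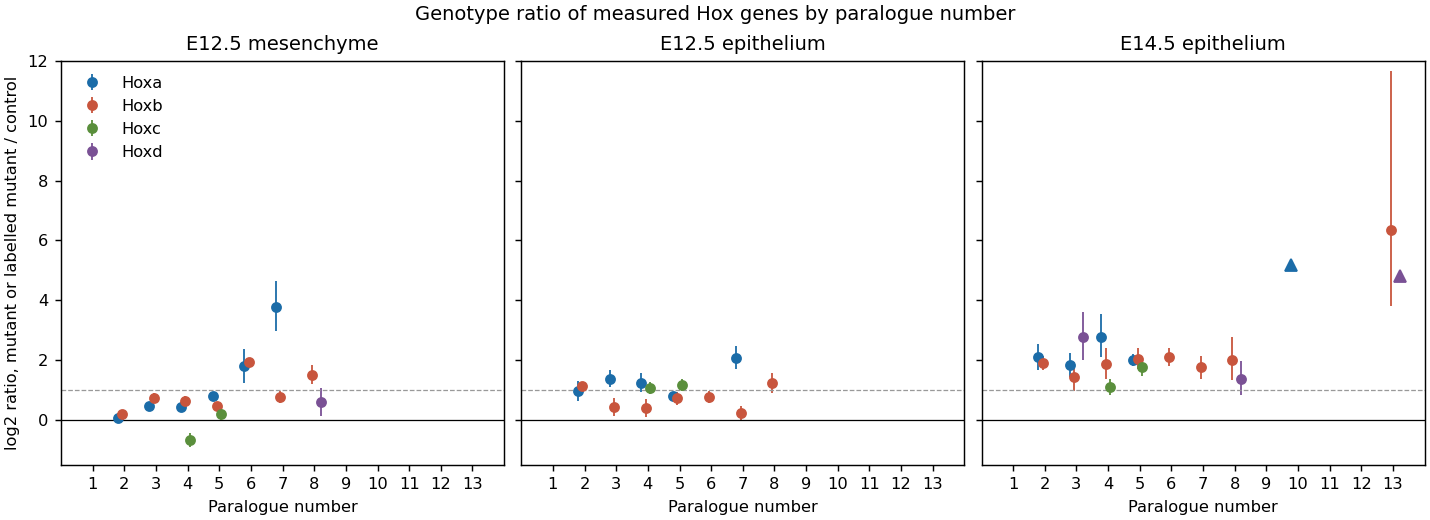
Genotype ratio (log2, y axis) of measured Hox genes against paralogue number (x axis) in the 3 genotype pairs, coloured by cluster; bars are 95% counting intervals, triangles are lower bounds for genes with no read in the control, and the dashed line marks 2-fold. In mesenchyme the ratios are near 0 for Hoxa2 and Hoxb2 and reach 3.76 for Hoxa7, while in E14.5 epithelium the points all lie above the dashed line (13 genes lie below 0 relative to the splanchnic median, a scale that is not drawn).

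The mesenchymal library that stood apart was the control by its share of Hox reads and the mutant by level. Summed over paralogues 6 to 8, levels were 47.0, 82.9, 69.3, 212, 20.2 and 74.8 CPM in the 6 libraries. Paralogues 6 to 8 took 10.9% of Hox reads in control mesenchyme (exact interval 10.3% to 11.6%) and 21.8% in mutant mesenchyme (21.1% to 22.5%). In the epithelial libraries they took 23.0%, 21.8%, 21.4% and 19.9%, so mutant mesenchyme lay among these and control mesenchyme lay below all 5 others. Per exon length the shares were 14.9% in control mesenchyme and 24.9% to 29.5% in the other libraries. Paralogues 1 and 2 took 30.2% in control mesenchyme and 19.0% to 23.8% in the others. These bands of paralogues were chosen after the values were seen.

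**Figure D3:**
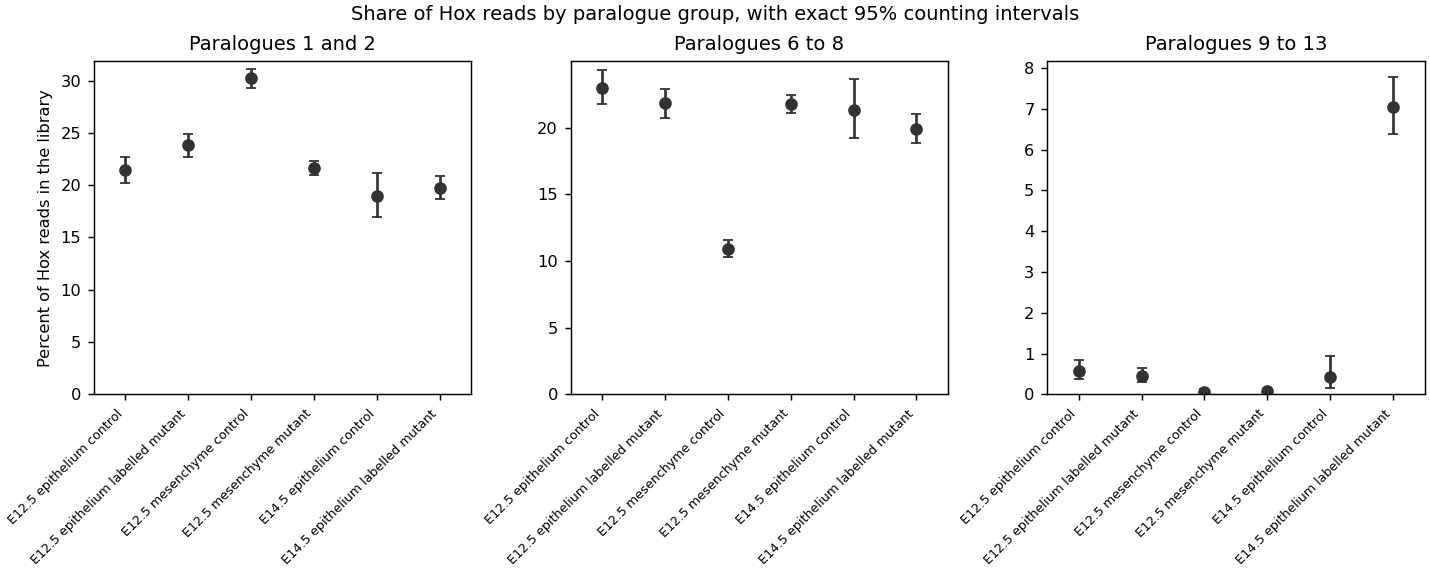
Percent of a library's Hox reads that came from paralogues 1 and 2, 6 to 8 and 9 to 13 (panels), by library (x axis); bars are exact 95% counting intervals. Control mesenchyme stands apart at 30.2% and 10.9% in the first 2 panels, and the E14.5 library labelled mutant at 7.05% in the last.

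Other cell types also differed between the mesenchymal pools, and their part in the Hox ratios was not tested. General mesenchymal genes had a median log2 ratio of -0.21, with 1 of 28 measured genes called higher and 2 lower, and splanchnic factors a median of -0.10, with 1 of 12 called higher (Tlx1, 2.18-fold, 2.06 to 2.32). Relative to these medians, the Hox median was 0.81 and 0.70. Of 8 measured smooth muscle genes 3 were called lower (Synpo2, Rgs5 and Cspg4; median -0.58, sums of 475 and 355 CPM), and of 5 measured mesothelial genes 2 (Lrrn4 and Rspo1; median -0.63, sums of 148 and 97.2 CPM). Of the leukocyte markers 4 of 5 measured were called lower, and their sum was 80.1 CPM in control and 38.8 CPM in mutant mesenchyme. All 3 measured erythroid genes were lower, with sums of 65.7 and 2.12 CPM. Of 3 measured limb and body wall genes, 2 were lower, Alx4 (3.49-fold, 2.55 to 4.85) and Tbx4 (3.35-fold, 2.47 to 4.59), with list sums of 39.6 and 20.6 CPM. Both measured kidney progenitor genes were higher, Six2 (4.28-fold, 3.58 to 5.14) and Eya1 (2.32-fold, 1.92 to 2.80), with sums of 28.4 and 71.5 CPM.

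Of the genes that regulate Hox clusters, 3 of 54 measured were called in the mesenchymal genotype pair, where 1.96% of all measured genes were called higher and 3.5% lower. Of 27 measured Polycomb genes, 1 was called lower (Pcgf5, 14.3 and 6.69 CPM, 2.14-fold, 1.68 to 2.73) and none higher, and none of 15 trithorax and demethylase genes was called in either direction, with medians of -0.01 and 0.04. Of 12 measured genes of the Cdx and retinoic acid list, Aldh1a2, which makes retinoic acid, stood at 40.0 CPM in control and 15.6 CPM in mutant mesenchyme (2.56-fold lower, 2.2 to 2.99), and Crabp1, which binds it in the cytoplasm, at 38.8 and 89.7 CPM (2.31-fold higher, 2.10 to 2.55); the other 10 were not called. Of the partner family, Meis1 stood at 556 and 597 CPM, Meis2 at 228 and 349 CPM, Pknox1 at 98.3 and 106 CPM and Pbx3 at 117 and 112 CPM, none of them called.

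At E12.5 the epithelial library labelled mutant held more RNA than its control for each of the 14 measured Hox genes, all of clusters A to C. Of 14 measured genes, 7 were called higher (Hoxa3, Hoxa4, Hoxa7, Hoxb2, Hoxb8, Hoxc4 and Hoxc5) and none lower, where 1.79% of all measured genes were called higher and 3.21% lower, and all but Hoxa7 reached 5 CPM in the control. The median was 1.02 for Hox genes and 0.00 for all measured genes. Hoxa7 had the largest ratio (3.53 and 14.9 CPM, 4.22-fold, 3.24 to 5.56), followed by Hoxa3 (7.44 and 19.4 CPM, 2.60-fold, 2.14 to 3.18) and Hoxa4 (6.41 and 15.2 CPM, 2.37-fold, 1.91 to 2.95). Hoxb8 was 2.34-fold higher (1.87 to 2.94), and Hoxb7 was the least unequal at 1.17-fold (0.988 to 1.38). Mira was called higher too, at 0.612 and 5.26 CPM (8.58-fold, 4.75 to 16.8). The splanchnic factors had a median of 0.69 in this pair with 3 of 11 called higher (Foxf1, Tlx1 and Barx1), and the general mesenchymal genes a median of 0.25 with 2 of 28 called higher. Of 10 measured smooth muscle genes 4 were called higher and 1 lower (median 0.86, sums of 218 and 387 CPM), and of 6 measured mesothelial genes 2 were higher (median 0.73, sums of 168 and 275 CPM). Of 3 measured limb and body wall genes 2 were higher (median 2.66, sums of 10.97 and 23.2 CPM), and the 1 measured erythroid gene, Hbb-y, was 56.4-fold higher (23.8 to 175; list sums of 0.706 and 17.9 CPM). Other lists went the other way. Of 15 measured leukocyte genes 3 were called lower and 0 higher (median -0.66, sums of 629 and 369 CPM). Of 3 measured kidney progenitor genes 1 was called lower and 0 higher (median -0.72, sums of 83.1 and 56.6 CPM). Relative to the splanchnic median the Hox median was 0.32 and 1 Hox gene was called higher. The part of mesenchymal RNA or of these other cell types in the ratios was not tested.

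Hoxb1, whose printed promoter holds a Pbx-Hox motif and which acts in a single segment of the hindbrain, was seen at depth in 1 library. It had 2 reads in E12.5 control epithelium, 44 in the library labelled mutant, 10 and 13 in control and mutant mesenchyme, 5 in E14.5 control epithelium and none in its labelled mutant counterpart. The E12.5 epithelial ratio was 30.7-fold (8.01 to 261), but at 2.89 CPM the gene stayed under the 5 CPM needed for a call. Hoxd1, of the same paralogue group, had 9 reads in that library and none in the other 5. Hoxc6 had 28 reads in that library and none in its control, with 8 and 33 reads in mesenchyme and none and 46 in the E14.5 pair.

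At E14.5 the epithelial pair differed in each measured Hox gene relative to all genes, though 13 of the 19 had a ratio below 0 relative to the splanchnic median. All 19 were called higher in the library labelled mutant, where 9.64% of all measured genes were called higher and 6.4% lower, and the median was 2.02 against -0.03 for all genes. Of the 19, 12 were measured through the labelled mutant library alone; the 7 that reached 5 CPM in the control (Hoxa5, Hoxb2, Hoxb5, Hoxb6, Hoxb7, Hoxc4 and Hoxc5) ranged from 2.14-fold for Hoxc4 (10.9 and 23.3 CPM, 1.77 to 2.61) to 4.27-fold for Hoxb6 (8.22 and 35.1 CPM, 3.49 to 5.26). Hoxa5 stood at 16.9 and 67.9 CPM (4.03-fold, 3.50 to 4.65) and Hoxa4, of the same cluster, at 1.37 and 9.41 CPM (6.87-fold, 4.27 to 11.6).

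These ratios moved together with mesenchymal genes and with genes of several other cell types. All 12 measured splanchnic factors were called higher in the same pair, with a median of 2.34, and 20 of 28 general mesenchymal genes, with a median of 1.17, while 12 of 26 epithelial genes were called lower and their sum stood at 8565 and 4711 CPM. Smooth muscle genes (8 of 10, median 2.39), neural crest and neuronal genes (10 of 14, 1.43) and skeletal muscle genes (4 of 4, 2.74) were also called higher. Endothelial genes (4 of 12 higher, 1 lower) and leukocyte genes (2 of 14 higher, 4 lower) went both ways. Relative to the splanchnic median the Hox median turned to -0.32, with 4 genes called higher and 1 lower, whereas relative to the general mesenchymal median it was 0.85. Summed Hox CPM divided by summed splanchnic CPM was 0.306, 0.335, 0.265, 0.407, 0.386 and 0.407 in the 6 libraries. That ratio was close within the E14.5 pair, and it was lowest in control mesenchyme. The part of the mesenchymal share of each pool, or of these other cell types, in the Hox ratios was not tested.

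**Figure D4:**
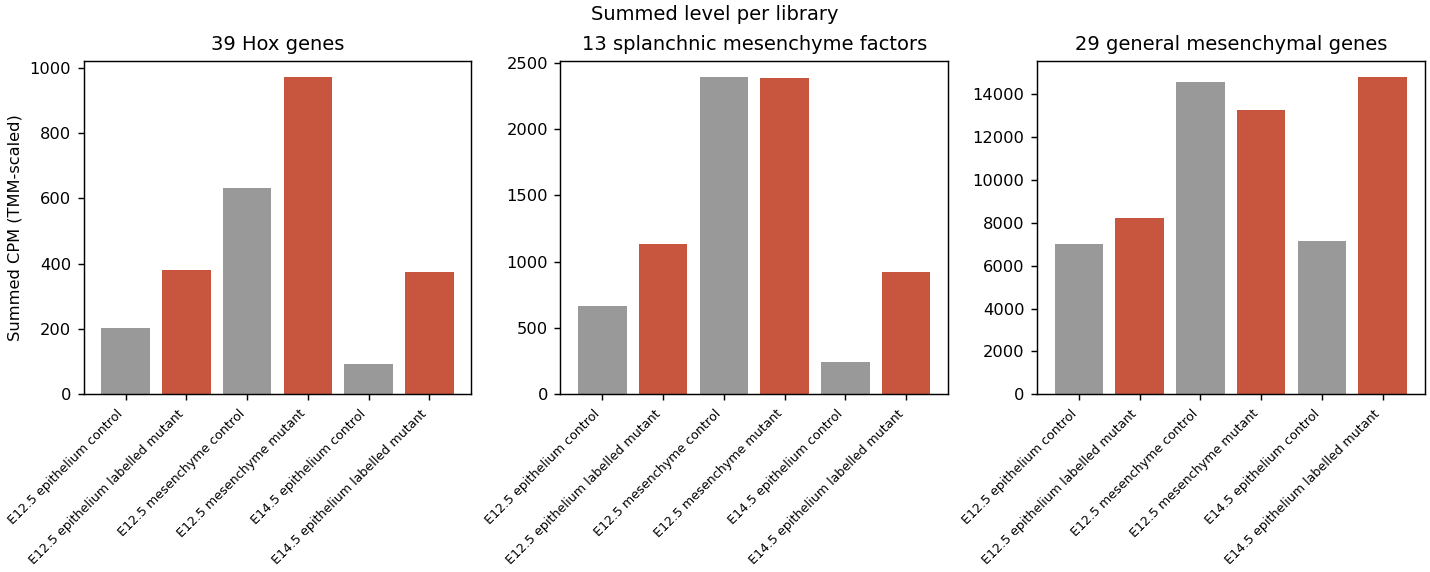
Summed TMM-scaled CPM of the 39 Hox genes, 13 splanchnic mesenchyme factors and 29 general mesenchymal genes (panels) in the 6 libraries (bars; grey, control; red, mutant or labelled mutant; no replicates). Hox sums run from 94.6 to 972 CPM, and in the E14.5 pair all 3 sums are higher in the library labelled mutant.

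The posterior Hox genes, paralogues 9 to 13, appeared almost only in the E14.5 library labelled mutant. They took 7.05% of Hox reads there (369 of 5231, interval 6.37% to 7.78%) and 0.0529% to 0.577% in the other 5 libraries, on 5 to 26 reads. Hoxd13 and Hoxd12, genes of the digits, genital tubercle and hind end of the gut, had 81 and 53 reads there (5.82 and 3.81 CPM), and Hoxd13 had 1 read in mutant mesenchyme and none elsewhere. Hoxb13, a tail and hindgut gene that is also known from the prostate, had 77 reads (5.53 CPM) there and 1 read in its control, 80.7-fold higher (14.1 to 3229). Hoxa10, a gene of the uterus and hindlimb, had 103 reads (7.40 CPM) there, 10 in E12.5 labelled mutant epithelium and none in the other 4, and was at least 36.0-fold higher than in its control; Hoxd13 was at least 28.3-fold higher, both bounds set against 3 counts. Hoxd9, Hoxa11, Hoxd11 and Hoxd10 had 21, 15, 10 and 3 reads there. The other 8 posterior genes (Hoxa9, Hoxa13, Hoxb9 and Hoxc9 to Hoxc13) had at most 15 reads in any library.

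A check of all 24062 genes found 56 with 10 or more reads in the E14.5 library labelled mutant and at most 1 in each of the other 5. Among them were 5 of the 39 Hox genes (Hoxa11, Hoxb13, Hoxd11, Hoxd12 and Hoxd13), with the antisense RNA Hoxa11os (30 reads) and Evx1, the homeobox gene at the end of cluster A (11 reads). The same check gave 62, 33, 21, 21 and 46 genes for the other libraries, with 0 Hox genes in each; it was made after the values were seen. Pitx1, a hindlimb gene, stood at 0.612, 5.78, 0.335, 1.03, 0 and 21.5 CPM, highest in the same library. Skeletal muscle genes summed to 39.3 CPM there and 5.63 to 9.79 CPM in the others, with Myod1 at 7.18 CPM and 1 of 9 genes at 0. Limb and body wall genes, a list that includes Pitx1 and its 21.5 CPM, summed to 30.2 CPM there against 5.0 to 39.6 CPM in the others, with 2 of 9 at 0. Between the epithelial libraries labelled mutant, 3 genes of this list were measured. At E14.5, 1 of them was called higher and 1 lower, with a median log2 ratio of -0.25. The part of other tissue in the posterior Hox reads was not tested.

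Between E12.5 and E14.5 the level of Hox genes in control epithelium was lower at the later stage relative to all genes, but not relative to splanchnic factors. Of 13 measured genes, 8 were called lower at E14.5 (Hoxa4 and Hoxb2 to Hoxb8) and none higher, where 11.2% of all measured genes were called lower and 6.53% higher, with medians of -1.24 and -0.03. All 13 reached 5 CPM at E12.5 and 7 did at E14.5. Of the 8 called, Hoxa4, Hoxb3, Hoxb4 and Hoxb8 were measured through the E12.5 library alone, which favours a lower call. They stood at 1.37, 3.42, 2.95 and 1.51 CPM at E14.5. Hoxa4 had the largest ratio, at 6.41 and 1.37 CPM (4.68-fold lower, 2.91 to 7.90), and Hoxb4, known from blood stem cells, stood at 8.95 and 2.95 CPM (3.04-fold lower, 2.17 to 4.34). Hoxc4 was the least unequal at 13.9 and 10.9 CPM (1.28-fold lower, 1.05 to 1.56). The splanchnic factors had a median of -1.90 in the same comparison, and relative to that the Hox median turned to 0.66. The table of the E12.5 control epithelium carries a name of another form and date than the other 5, and whether it came from another run was not tested.

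Between the epithelial libraries labelled mutant no common direction was seen with stage. Of 20 measured genes, 5 were called higher at E14.5 (Hoxa10, Hoxb13, Hoxd3, Hoxd8 and Hoxd13) and 2 lower (Hoxa7 and Hoxb8), where 6.27% of all measured genes were called higher and 5.89% lower, with medians of 0.05 and 0.00. The 5 higher genes lay under 5 CPM at E12.5 (0.657, 0, 3.55, 3.29 and 0 CPM in the order named) and were measured through the E14.5 library alone, which favours a higher call. Hoxa7 stood at 14.9 and 4.24 CPM (3.52-fold lower, 2.63 to 4.77) and Hoxb8 at 14.1 and 6.10 CPM (2.31-fold lower, 1.79 to 3.01). Hoxa7 was measured through the E12.5 library alone, which favours a lower call, whereas Hoxb8 reached 5 CPM in both libraries. Hoxd3, a gene of the axial skeleton, stood at 3.55 and 7.90 CPM (2.23-fold higher, 1.59 to 3.14), though it shares 62.8% of its exon bases. Mira was 8.13-fold lower, in the same direction as Hoxa7 beside it.

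Across the 3 genotype pairs, which share no library, 13 Hox genes were measured in each and 12 of them had a log2 ratio above 0 in each; the exception was Hoxc4 in mesenchyme. Hoxb8 was the 1 gene called higher in all 3 pairs, and 8 genes were called higher in at least 2 (Hoxa3, Hoxa4, Hoxa7, Hoxb2, Hoxb6, Hoxb8, Hoxc4 and Hoxc5). A fit of 1 common genotype effect over the 3 pairs took the pair as a block (edgeR's quasi-likelihood test, Benjamini-Hochberg adjustment over 12785 genes). Of all 12785 tested genes, 1 had an adjusted p below 0.05, so few genes of any kind could pass. Of 21 tested Hox genes 0 did, and the lowest adjusted p in edgeR among those named here was 0.723. At an unadjusted p below 0.05 there were 14, all higher in mutants, where 6.87% of all tested genes passed in either direction. These included Hoxa10 and Hoxd13, which reached 5 CPM only in the E14.5 library labelled mutant and had no adjusted p in DESeq2. Hoxa10 had no read in either mesenchymal library and Hoxd13 none in the E12.5 epithelial pair. Neither gene thus shows an effect common to the 3 pairs. DESeq2 with the same block gave an adjusted p below 0.05 for 36 of the 12785 genes. Among them were 2 Hox genes, Hoxb6 (log2 ratio 1.60 in the edgeR fit, DESeq2 adjusted p = 0.00156) and Hoxa5 (1.18, DESeq2 adjusted p = 0.0190), both higher in 3 of 3 pairs. The fit was added after the values were seen, has 2 residual degrees of freedom and counts differences in effect between tissues and stages as error. Whether the size of the genotype ratio differed between the pairs was not tested, as each pair is 2 libraries. Relative to splanchnic factors these directions held in mesenchyme and E12.5 epithelium as medians and turned in E14.5 epithelium, as given above. Polycomb genes showed 1 of 27 called lower in E12.5 epithelium (Phc3, 22.8 and 8.54 CPM, 2.67-fold, 2.19 to 3.26) and none of 27 called at E14.5, and trithorax and demethylase genes none of 15 in either pair. Of the Cdx and retinoic acid list, 1 of 12 was called higher in E12.5 epithelium (Crabp2, 2.37-fold, 2.0 to 2.82), and 7 of 13 higher and 1 lower at E14.5, among them Aldh1a3 (9.26-fold, 5.09 to 18.5) and Crabp2 (5.84-fold, 4.16 to 8.40).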

How the data were processed

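RNA sequencing libraries of 6 sorted pools were used, 1 per group. Raw counts were deposited by the authors as 1 table of gene symbols for each library, in whole numbers described in the table names as deduplicated; mm10, Cufflinks 2.2.1 and Cuffdiff 2.2.1 are named per the submitters' processing notes. Not given in the sources used here are the aligner, counter, annotation and use of strand. Each table ends with 5 summary lines, kept out of totals: these held reads on no feature (4.69% to 8.84% of the total), ambiguous ones (1.53% to 1.72%) and those not aligned uniquely (13.7% to 20.1%).

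Counts were scaled to CPM with TMM factors (0.941 to 1.047; edgeR 4.0.16 in R 4.3.3). Ratios, exact conditional binomial (Clopper-Pearson) 95% intervals and floors of 3 counts were computed in Python 3.11.15 with numpy 2.4.6, pandas 2.3.3 and scipy 1.17.1, on all genes; figures used matplotlib 3.10.9. PCR copies are not independent molecules, so intervals hold counting error alone. Positions and exon lengths came from GENCODE M21 and promoter windows and Mira from RefSeq. A fit of genotype over the 3 pairs, with the pair as block, used edgeR's quasi-likelihood test on genes at 5 CPM in a library, with DESeq2 as alternative; it was chosen after the data were seen. Both calculations were tested on simulated counts.

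The members, gene lists and comparisons were chosen with earlier results of these data known. Values in all 6 libraries were open to any Hox gene at 5 CPM and called somewhere; of other lists, up to 4 called members of largest log2 ratio were named, plus Pbx2, Nkx2-5 and Pdx1. Meis1, Meis2, Pknox1, Pbx3, Evx1 and Hoxa11os were named outside that rule, after their values were seen. The alternatives were DESeq2 1.42.0 size factors, plain CPM, TMM without the 50 most abundant genes, thinning, a 1 CPM filter, a 20 CPM filter or no filter, a 1.5-fold or 4-fold threshold, calls without the interval, and scaling to general mesenchymal or splanchnic genes. Of named items, 1 allele of the mutant genotype, its gene and the values of 1 Hox gene are not reported here.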

Additional observations from a re-analysis of the deposited data

Results flagged for a closer look

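Some Hox genes had counting intervals on opposite sides of 1 in comparisons of the same kind. In each case the difference itself was not tested, as every side is 1 library against 1. Hoxc4 had a genotype log2 ratio of -0.66 in E12.5 mesenchyme and 1.07 in E12.5 epithelium, a difference of -1.73. Against E14.5 epithelium, where its ratio was 1.10, the difference was -1.76.

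Between fractions, Hoxc4 had a ratio of mesenchyme to epithelium of 0.87 in controls and -0.85 in mutants, a difference of 1.73, and Hoxc5 of 0.25 and -0.71, a difference of 0.96. Both differences rest on the same 4 libraries as the genotype ratios of these genes at E12.5. Between stages, the ratio of E14.5 to E12.5 was -0.70 in controls and 0.44 in labelled mutants for Hoxa2 (difference -1.14), -0.89 and 0.32 for Hoxa5 (-1.21), and -1.03 and 0.30 for Hoxb6 (-1.33).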

How the results depend on the processing

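The fit with the pair as a block gave 0 Hox genes at an adjusted p below 0.05 in edgeR with 3 pairs, with a 1 CPM filter and without any 1 pair (0 to 0; lowest adjusted p 0.157 to 0.806), and 2 in DESeq2. Over all tested genes, 0 to 7 passed in these edgeR fits and 36 in DESeq2. With 1 library per group, none could be left out of a group. Counts of called Hox genes stayed within 1.5 times the reported count in 127 of 173 cases, where a count of 0 that stayed 0 was scored as unchanged. Of 756 values of single genes, 656 stayed within their reported interval, 78 moved and 22 turned. A change of filter, fold threshold or interval condition cannot alter a ratio, so part of the 656 was fixed in advance. Neither tally thus measures how stable the results are. All values below are log2 ratios or counts of Hox genes.

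With a filter at 20 CPM, 2 genes were called higher in the mesenchyme genotype pair, 3 in the E12.5 and 6 in the E14.5 epithelial pair, 1 lower with stage in controls, and 0 higher and 0 lower with stage in labelled mutants. With a filter at 1 CPM, 2 and 1 were lower between fractions in controls and mutants, and 8 higher with stage in labelled mutants. With none, 11 were higher in the E12.5 epithelial pair, 3 and 4 lower between fractions, and 9 higher and 4 lower with stage in labelled mutants. At 1.5-fold, 9 were higher and 2 lower in the mesenchyme pair, 11 higher in the E12.5 epithelial pair and 2 lower between mutant fractions. At 4-fold, 1, 1 and 11 were higher in the mesenchyme, E12.5 and E14.5 pairs, 5 and 2 higher between control and mutant fractions, 2 lower with stage in controls, and 3 higher and 0 lower with stage in labelled mutants. Plain CPM and thinning each gave 1 lower between control fractions (0 as reported).

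Relative to the general mesenchymal median, 2 and 6 were higher in the E12.5 and E14.5 epithelial pairs, 3 between control fractions, 6 higher and 2 lower between mutant fractions, 3 lower with stage in controls and 3 higher in labelled mutants; Hoxc4 at E14.5 turned to -0.072. Relative to the splanchnic median, chosen after the data were seen, 1 was higher in the E12.5 epithelial pair, 4 higher and 1 lower at E14.5, 0 higher and 3 lower between fractions of either genotype, 4 higher and 0 lower with stage in controls, and 1 lower with stage in labelled mutants. On that scale genotype ratios turned at E14.5 for Hoxa2 (-0.23), Hoxa3 (-0.51), Hoxa5 (-0.33), Hoxb2 (-0.44), Hoxb3 (-0.89), Hoxb4 (-0.46), Hoxb5 (-0.29), Hoxb6 (-0.24), Hoxb7 (-0.59), Hoxb8 (-0.32), Hoxc4 (-1.24), Hoxc5 (-0.57) and Hoxd8 (-0.96). Fraction ratios turned for Hoxb4 (-0.28) in controls and Hoxb7 (-0.22) in mutants. Stage ratios in controls turned for Hoxb2 (0.64), Hoxb3 (0.50), Hoxb4 (0.29), Hoxb5 (0.66), Hoxb6 (0.87) and Hoxb7 (0.37).

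In mesenchyme, 4 Hox genes were called higher under DESeq2 size factors, plain CPM, thinning and the splanchnic scale. Depth limits the rarer genes: each gene of paralogues 9 to 13 had at most 103 reads in a library and Hoxb1 at most 44.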

Other observations

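Hox partner genes of the Meis and Pknox families had fraction differences of their own. Pknox2 stood at 24.0 CPM in E12.5 control epithelium and 94.5 CPM in control mesenchyme, 3.93-fold higher, and Meis3 at 37.7 and 77.3 CPM, 2.05-fold higher; in the mutant pair they stood at 28.97 and 124 CPM (4.27-fold) and at 40.0 and 58.2 CPM (1.45-fold, not called). Meis2 stood at 121 and 228 CPM in controls (1.88-fold, not called) and at 150 and 349 CPM in mutants (2.33-fold, called). Summed over the family, levels were 548 and 592 CPM in E12.5 control and labelled mutant epithelium, 1055 and 1234 CPM in control and mutant mesenchyme, and 292 and 453 CPM in E14.5 control and labelled mutant epithelium.

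Cdx1, a gut gene that activates middle Hox genes in the embryo, had 63 reads (4.52 CPM) in the E14.5 library labelled mutant and at most 8 in any other, and Cdx2 had 11 there (0.790 CPM), 8 in E12.5 labelled mutant epithelium and none elsewhere. Cyp26a1, which breaks down retinoic acid, had 55 reads in labelled mutant epithelium of E12.5, the library with 44 reads of Hoxb1 and 9 of Hoxd1, and at most 10 in the others. These genes lay under 5 CPM in each library and were named after their values were seen.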
